A study of Mus musculus with 24 samples.

Results

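The transcription factors that build the neuron lineage of the medial ganglionic eminence (MGE) were followed through 9 genes: Dlx1, Dlx2, Dlx5, Dlx6, Nkx2-1, Lhx6, Lhx8, Sox6 and Satb1. They were taken by name from 18194 genes that had a probe set on the array, with earlier results of these data known. Each gene was read from the probe set with the highest mean over 24 arrays, and all 9 were among the 12378 genes tested. Messenger RNA had been measured on Affymetrix mouse genome arrays in cultures of neurons from C57Bl/6 mouse embryos of embryonic day 14, from Npas4 knockout (KO) and wild-type (WT) littermates. The tissue dissected was either MGE or cortex (CTX). The 12 groups of 2 arrays were MGE KO, MGE WT, CTX KO and CTX WT cultures, each at 0, 1 and 6 h of depolarization with 55 mM KCl. All groups, the 0 h controls included, had been grown for about 10 days and kept silent overnight by tetrodotoxin, a sodium channel blocker, together with AP-5, an antagonist of NMDA receptors. The labels give no allele for the knockout, do not say whether animals were pooled, and do not say that the 2 repeats were separate cultures, so p-values measure only the spread between these arrays.

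The MGE is a zone of the embryonic ventral forebrain that makes somatostatin and parvalbumin interneurons of the cortex and several neuron types of the basal forebrain. NKX2-1 gives MGE progenitors their identity and turns on Lhx6 and Lhx8, while DLX1 and DLX2 act across the ganglionic eminences and turn on Dlx5 and Dlx6. LHX6 is kept in maturing MGE interneurons, where SOX6 and SATB1 act after it, and LHX8 is kept in cholinergic and other ventral neurons. Npas4 itself is an activity-dependent transcription factor gene whose protein binds DNA with ARNT partners.

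The 4 Dlx genes lie in 2 neighbouring pairs. Ordered by RefSeq start position, Dlx1as comes between Dlx1 and Dlx2 on chromosome 2. On chromosome 6, Dlx6os1, Dlx6 and Dlx5 follow each other, with Dlx6os2 before Dlx5. This order does not show whether transcripts overlap. The promoters of Dlx1, Dlx2 and Dlx6os1 are shown because these neighbours had unlike time courses, as described below. They are RefSeq sequences of build GRCm38.p6, each with 250 bases before and 50 bases after the transcript's start, 5′ to 3′. Capitals mark matches on either strand to TGACG (the core of the cyclic AMP response element), CACGTG (an E-box), TAATTA (a homeodomain core), CAAGTG (an NKX2-1 core) or TCGTG (an NPAS4 core).
Dlx1 promoter, chr2:71529195-71529494, plus strand: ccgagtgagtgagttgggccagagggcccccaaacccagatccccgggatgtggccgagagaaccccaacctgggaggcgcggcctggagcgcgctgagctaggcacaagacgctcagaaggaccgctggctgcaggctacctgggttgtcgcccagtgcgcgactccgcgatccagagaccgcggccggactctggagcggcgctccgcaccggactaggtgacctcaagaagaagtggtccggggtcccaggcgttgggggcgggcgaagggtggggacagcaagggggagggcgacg
Dlx2 promoter, chr2:71546705-71547004, minus strand: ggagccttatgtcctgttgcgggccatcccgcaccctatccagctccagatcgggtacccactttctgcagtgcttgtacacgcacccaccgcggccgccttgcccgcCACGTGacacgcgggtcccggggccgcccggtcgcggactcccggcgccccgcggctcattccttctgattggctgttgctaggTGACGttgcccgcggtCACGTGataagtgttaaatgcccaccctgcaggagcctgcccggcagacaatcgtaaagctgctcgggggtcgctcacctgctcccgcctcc
Dlx6os1 promoter, chr6:6869484-6869783, minus strand: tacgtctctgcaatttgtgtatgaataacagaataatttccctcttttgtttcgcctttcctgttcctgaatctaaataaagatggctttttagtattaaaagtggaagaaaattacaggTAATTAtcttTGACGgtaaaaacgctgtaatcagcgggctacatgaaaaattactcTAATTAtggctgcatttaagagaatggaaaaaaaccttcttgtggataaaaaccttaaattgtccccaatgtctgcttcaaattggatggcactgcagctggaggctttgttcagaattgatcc
The Dlx1 window held 0 matches to the 5 motifs. The Dlx2 window held 1 TGACG and 2 CACGTG, and the Dlx6os1 window held 1 TGACG and 2 TAATTA, with no overlap between matches; a second Dlx6os1 start held 1 TAATTA. Of 32851 promoters of the same length, 20.8% held TGACG, 7.15% CACGTG, 5.29% TAATTA, 13.6% CAAGTG and 16% TCGTG. Of the 9 genes, 7 had a promoter among those available. Dlx5 and Dlx6 had none, nor did Dlx1as, so the motifs of Dlx5 and Dlx6 could not be compared. TGACG was also found in the promoter of Nkx2-1 and in 1 of Sox6. TCGTG was found in promoters of Lhx6, Sox6 and Satb1, and CAAGTG in promoters of Sox6 and Satb1. CACGTG and TAATTA had 0 matches in the other members' promoters. These matches describe letters and not binding.

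The labels were first checked against marker genes. At 1 h, the log2 intensity of Npas4 lay between 6.80 and 7.35 in the 4 KO arrays, against 11.20 to 12.04 in the 4 WT arrays. Fos, an immediate early gene, lay between 13.21 and 14.29 in the 8 arrays at 1 h, and between 6.58 and 8.82 in the 8 arrays at 0 h. Array medians ranged from 6.84 to 6.92. The repeats of MGE WT cultures at 0 h stood furthest apart, with 12.2% of tested genes more than 2-fold apart, followed by CTX WT cultures at 6 h with 7.92%, while the other 10 groups lay between 0.937% and 4.44%. An array left out of a group of 2 leaves 1 array there, whose spread is then assumed to be that of the other groups.

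**Figure D1:**
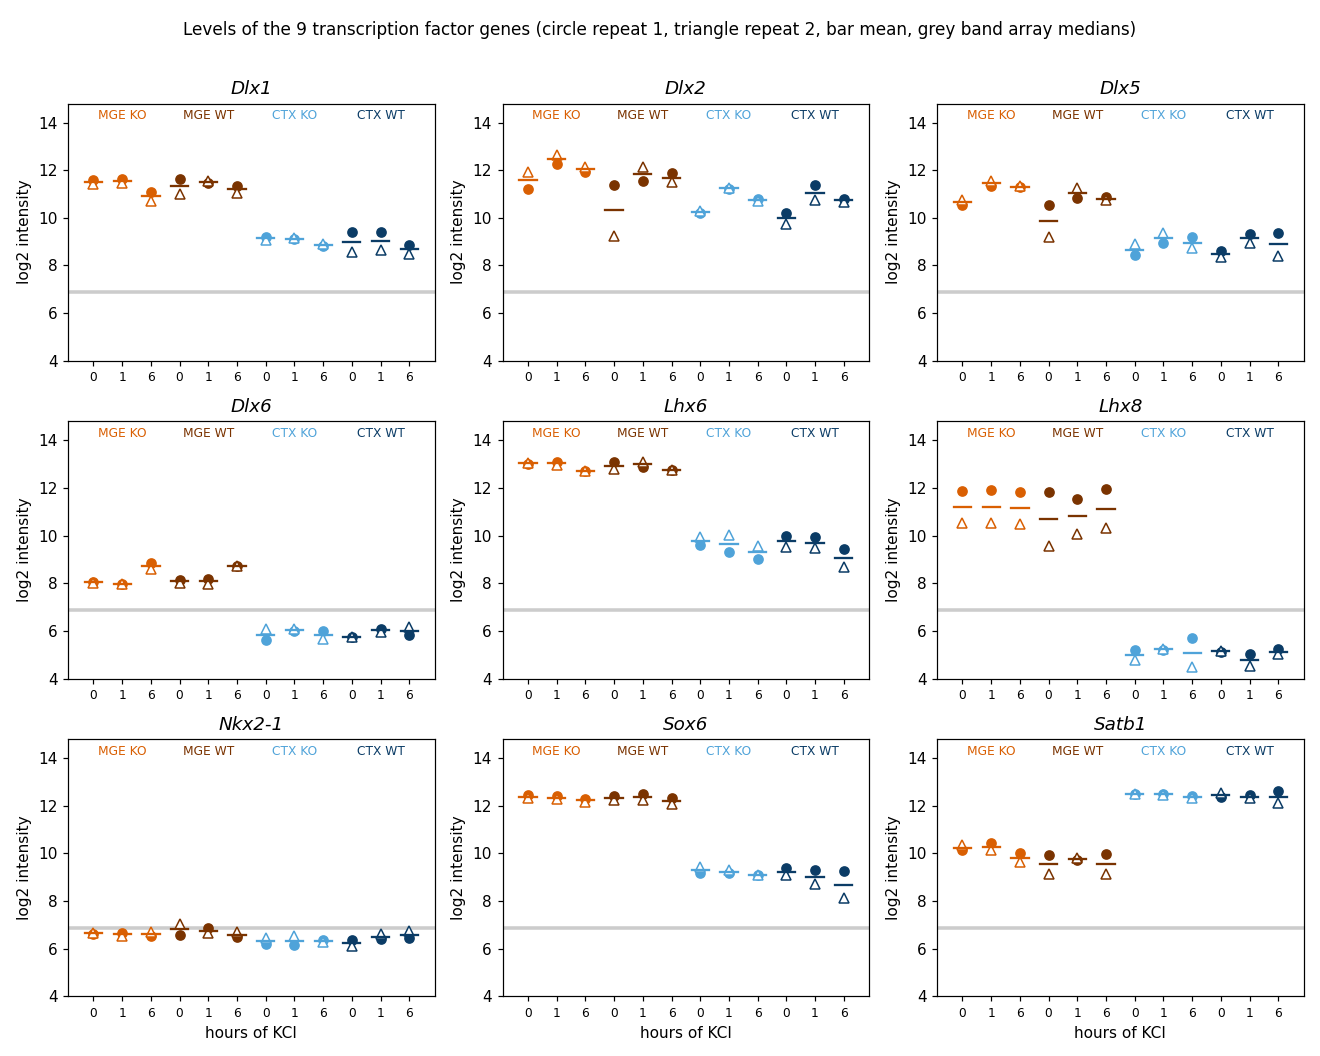
Log2 intensity of each of the 9 genes on the 24 arrays, by culture and hours of KCl; circles are repeat 1, triangles repeat 2, bars the mean of 2 arrays and the grey band the range of array medians. Dlx6 and Lhx8 lie above the band in the 12 MGE arrays and below it in the 12 CTX arrays, and Satb1 is the gene with higher levels in CTX arrays.

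In resting cultures, 7 of the 9 genes were higher in MGE than in CTX neurons of WT mice, and Satb1 was lower. Lhx6 was 8.98-fold, Sox6 8.67-fold and Dlx1 5.07-fold higher. Lhx8 and Dlx6 were below the array median in all CTX arrays, and with that median as a floor they were at least 13.97-fold and 2.28-fold higher. Lhx8, Dlx6 and Nkx2-1 passed the filter on low values through MGE arrays alone, so their part in the count is a description. These 8 calls (limma, adjusted p under 0.05) stood against a background in which 64.2% of all tested genes were called, 34.7% higher and 29.5% lower. The median log2 difference of the 9 genes was 2.33, and that of all tested genes was 0.11. Dlx6 held that middle value of the 9, and against the array median as a floor its log2 difference was at least 1.19. In a bulk culture, fewer cells of a type and less RNA per cell cannot be told apart.

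Among the Dlx genes at 0 h, Dlx1 had 11.59 and 11.43 in MGE KO cultures, against 9.21 and 9.07 in CTX KO cultures. In WT, Dlx1 had 11.64 and 11.02 in MGE cultures, against 9.40 and 8.58 in CTX cultures. The MGE and CTX arrays did not overlap, and the log2 difference was 2.37 ± 0.27 in KO (SE, limma adjusted p = 1.29e-05) and 2.34 ± 0.27 in WT (adjusted p = 9.37e-06). Dlx6 had 8.06 and 8.02 in MGE KO cultures, against 5.61 and 6.08 in CTX KO cultures, and 8.13 and 8.03 in MGE WT cultures, against 5.74 and 5.76 in CTX WT cultures. Its fitted log2 differences were 2.20 ± 0.16 in KO and 2.33 ± 0.16 in WT. They are a description, since Dlx6 passed the filter on low values through MGE arrays alone. Against the array median as a floor, Dlx6 was at least 2.26-fold higher in MGE KO and at least 2.28-fold higher in MGE WT cultures.

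Dlx5 and Dlx2, the other member of each pair, separated the cultures less. Dlx5 had 10.54 and 10.77 in MGE KO cultures, against 8.45 and 8.88 in CTX KO cultures, and 10.52 and 9.19 in MGE WT cultures, against 8.60 and 8.37 in CTX WT cultures. Its log2 difference was 1.99 ± 0.37 in KO and 1.37 ± 0.37 in WT (limma adjusted p = 0.00061 and 0.00492), and in WT it was 2.04 without the second MGE WT array and 0.70 without the first (adjusted p = 0.0847). Dlx2 had 11.23 and 11.92 in MGE KO cultures, against 10.20 and 10.29 in CTX KO cultures, and 11.38 and 9.25 in MGE WT cultures, against 10.19 and 9.75 in CTX WT cultures. The second MGE WT array was the lowest Dlx2 value of all 24 arrays, and only in WT at 0 h did MGE and CTX arrays overlap. The Dlx2 difference passed the test in KO (1.33 ± 0.48, limma adjusted p = 0.0337) and not in WT (0.34 ± 0.48, adjusted p = 0.542). In WT it was 1.41 without the second MGE array and -0.72 without the first. The KO call was lost without the second MGE KO array (0.98, adjusted p = 0.192) and without either CTX KO array (adjusted p = 0.113 and 0.103). Intensities of different probe sets are not comparable as amounts, so levels are compared here within a gene.

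Nkx2-1, the MGE specification gene, was close to the array median in all cultures. It lay between 6.48 and 7.03 in the 12 MGE arrays (median 6.65), against 6.13 to 6.72 in the 12 CTX arrays (median 6.38), and it was above the array median in 2 arrays, both MGE. It passed the filter on low values through those 2 arrays, so a difference between MGE and CTX was built into its selection. At 0 h it had 6.58 and 7.03 in MGE WT cultures, against 6.37 and 6.13 in CTX WT cultures, and the log2 difference was 0.56 ± 0.18 (limma adjusted p = 0.0125). It was 0.33 with an adjusted p of 0.172 without the second MGE WT array and 0.44 with an adjusted p of 0.105 without the second CTX WT array, and it did not pass in the other 5 comparisons of MGE with CTX (limma adjusted p from 0.14 to 0.954).

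Lhx6 and Lhx8, the LIM homeodomain genes downstream of Nkx2-1, were both higher in MGE cultures. Lhx6 had 13.03 and 13.07 in MGE KO cultures, against 9.59 and 9.96 in CTX KO cultures, and 13.08 and 12.79 in MGE WT cultures, against 10.00 and 9.54 in CTX WT cultures. The log2 differences were 3.28 ± 0.28 and 3.17 ± 0.28 (limma adjusted p = 6.54e-07 in KO and 6.85e-07 in WT), and every Lhx6 array lay above the array median in both cell types. Lhx8 had 11.89 and 10.54 in MGE KO cultures, against 5.21 and 4.78 in CTX KO cultures, and 11.82 and 9.56 in MGE WT cultures, against 5.12 and 5.17 in CTX WT cultures. All 12 CTX arrays were below the array median for Lhx8. Against that median as a floor, Lhx8 was at least 20.4-fold higher in MGE KO and at least 13.97-fold higher in MGE WT cultures. The fitted log2 differences were 6.22 ± 0.78 in KO and 5.55 ± 0.78 in WT, and in WT 6.67 without the second MGE array and 4.42 without the first. These too are a description, since Lhx8 passed the filter on low values through MGE arrays alone.

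Sox6 and Satb1, which act after Lhx6 in interneurons, went opposite ways between the cultures. Sox6 had 12.45 and 12.32 in MGE KO cultures, against 9.16 and 9.42 in CTX KO cultures, and 12.43 and 12.25 in MGE WT cultures, against 9.37 and 9.09 in CTX WT cultures, with log2 differences of 3.09 ± 0.27 and 3.12 ± 0.27 (limma adjusted p = 1e-06 in KO and 6.77e-07 in WT). Satb1 had 10.14 and 10.33 in MGE KO cultures, against 12.48 and 12.50 in CTX KO cultures, and 9.93 and 9.15 in MGE WT cultures, against 12.38 and 12.54 in CTX WT cultures. It was 4.77-fold lower in MGE KO cultures and 7.56-fold lower in MGE WT cultures than in their CTX counterparts (log2 differences of -2.25 ± 0.26 and -2.92 ± 0.26, limma adjusted p = 1.42e-05 and 9.44e-07). Satb1 is also known from cortical projection neurons, and it was above the array median in all 24 arrays.

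Most calls held over the 6 pairs of genotype and time. In KO, 8, 7 and 8 genes passed at 0, 1 and 6 h, against backgrounds of 47%, 43.9% and 54.1% of all genes. In WT, 8, 7 and 7 genes passed at 0, 1 and 6 h, with backgrounds of 64.2%, 52.8% and 56%. Each count includes Lhx8 and Dlx6, and that of WT at 0 h also Nkx2-1. These genes passed the filter on low values through MGE arrays alone, so their part here is a description. Dlx1, Dlx5, Dlx6, Lhx6, Lhx8 and Sox6 were higher and Satb1 lower in MGE cultures in 6 of 6 pairs with no overlap of arrays, which 28.2% of all tested genes did in the higher direction and 21.1% in the lower. Dlx2 was called in KO at 0 and 6 h, with the 6 h call lost without any 1 of its 4 arrays (adjusted p from 0.0742 to 0.128), and Nkx2-1 in WT at 0 h.

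**Figure D2:**
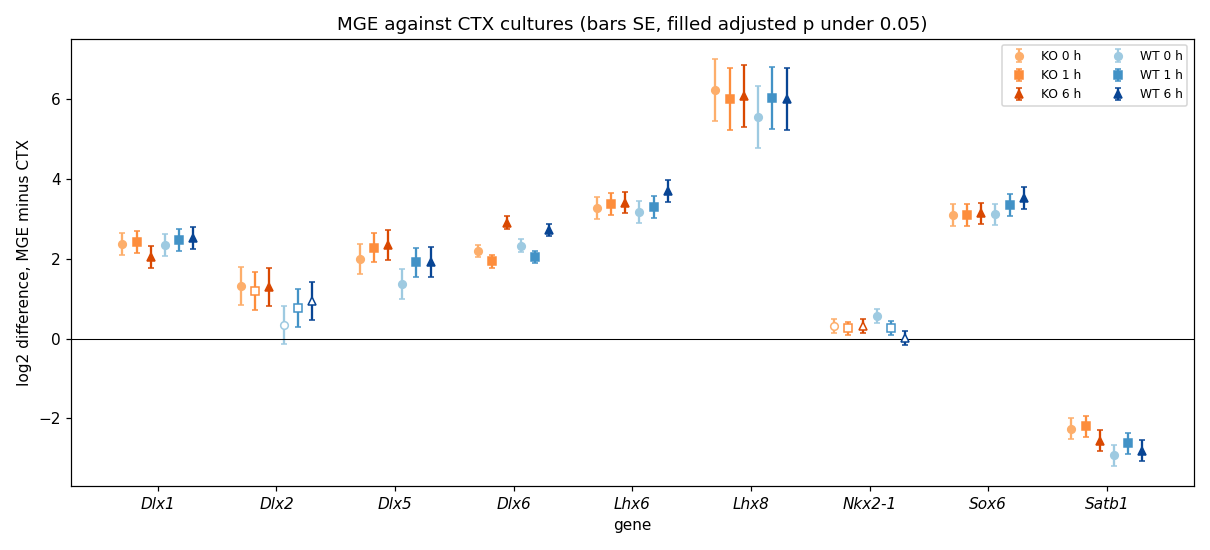
Log2 difference of MGE minus CTX cultures for each gene in KO and WT at 0, 1 and 6 h; bars are standard errors and filled symbols passed an adjusted p of 0.05. Lhx6 and Sox6 stand above 3, Lhx8, below the array median in CTX arrays, above 5, and Satb1 is the gene below 0.

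The order of group means was in blocks by cell type. For Dlx1, Dlx5, Dlx6, Lhx6, Lhx8 and Sox6 the 6 MGE groups came before the 6 CTX groups, and for Satb1 after them. For Dlx1, Lhx8 and Sox6, neighbours within the MGE block had overlapping arrays at each step. Dlx2 broke the block, since the MGE WT group at 0 h ranked below 4 CTX groups.

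Other probe sets of the same genes mostly gave the same picture. The second Lhx6 probe set differed by 3.24 ± 0.36 in KO and 3.64 ± 0.36 in WT at 0 h. The second Sox6 probe set differed by 2.17 ± 0.33 and 1.59 ± 0.33, and the third by 3.21 ± 0.33 and 3.33 ± 0.33, in KO and WT. The fourth, above the array median in 2 arrays, differed by 0.72 ± 0.26 and 0.79 ± 0.26. Of the 5 Satb1 probe sets, the second differed by -2.26 ± 0.25 and -2.40 ± 0.25 and the third by -2.59 ± 0.30 and -3.06 ± 0.30. The other 2 Satb1 probe sets did not pass the test (limma adjusted p from 0.0892 to 0.831), and the dimmest was below the array median in all arrays. The other 6 genes had 1 probe set each.

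Genes of the same lineage were followed in lists drawn from general knowledge. Of 19 interneuron genes tested, 13 were higher and 3 lower in MGE than in CTX cultures of WT mice at 0 h, with a median log2 difference of 1.70. Npy, a neuropeptide gene, differed by 4.30 ± 0.22 (limma adjusted p = 4.33e-09), Slc32a1, the vesicular GABA transporter, by 3.47 ± 0.30 (adjusted p = 6.23e-07), Sst by 2.37 ± 0.29 (adjusted p = 1.37e-05) and Robo1, an axon guidance receptor, by -2.66 ± 0.30 (adjusted p = 6.91e-06). Of 9 tested MGE specification and partner genes, 6 were higher and 2 lower, with the LIM homeodomain gene Isl1 at 4.09 ± 0.93 (limma adjusted p = 0.0016), from levels of 9.43 and 6.98 in MGE WT cultures, against 3.95 and 4.30 in CTX WT cultures, and the transcription factor gene Maf at 1.80 ± 0.33 (adjusted p = 0.000295). Of 15 factors and markers of the neighbouring caudal and lateral eminences, 4 were higher and 6 lower, among them Nr2f1 at -3.51 ± 0.56 (limma adjusted p = 0.000112). Of 11 cortical projection neuron genes, 9 were lower and 2 higher, among them Neurod6 and Tbr1 (limma adjusted p = 1.33e-12 and 4.51e-11). Both were below the array median in all 12 MGE arrays, and with that median as a floor Neurod6 was at least 44.4-fold and Tbr1 at least 29.8-fold lower in MGE cultures.

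Some markers of other cell types were also called between the cultures. At 0 h in WT, 3 of 6 tested microglial genes, 2 of 5 oligodendrocyte lineage genes, 1 of 6 astrocyte genes and 1 of 4 vascular genes were higher in MGE cultures, and 3 of 8 progenitor genes were higher and 2 lower. These counts stand beside 34.7% of all genes called higher and 29.5% lower in the same comparison. The single tested erythroid gene, Hba-a2, was lower (-2.43 ± 0.37, limma adjusted p = 8.2e-05). The microglial genes did not all go the same way. Median levels of Tyrobp and C1qb were 9.33 and 9.72 in MGE arrays, against 7.21 and 7.11 in CTX arrays. Those of Aif1 and Csf1r were 5.95 and 7.67 in MGE arrays, against 7.34 and 7.80 in CTX arrays. Summed intensities over each list, in which the brightest genes weigh most, ranged from 1183 to 3791 in MGE arrays, against 596 to 1214 in CTX arrays, for 8 microglial genes. They ranged from 4393 to 6315 in MGE arrays, against 1670 to 2471 in CTX arrays, for 8 oligodendrocyte genes, and from 7128 to 12563 in MGE arrays, against 2720 to 8652 in CTX arrays, for 7 astrocyte genes. Their part in the differences of the 9 genes was not tested.

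Lhx8 split the MGE cultures by repeat number. Repeat 1 was above repeat 2 in 6 of 6 MGE groups, by 1.57 on average (range 1.33 to 2.25 on the log2 scale). In the same 6 groups the mean difference between repeats was 0.32 for Satb1, 0.26 for Dlx1, 0.17 for Sox6, 0.10 for Dlx6 and 0.03 for Lhx6, with repeat 1 above repeat 2 in 6 of 6 groups for Sox6 and Dlx6 too. Repeat differences over all tested genes also correlated between MGE groups, with a median r of 0.61 over 15 pairs. How many of all genes kept 1 order in 6 of 6 groups was not counted. Isl1, Gbx1 and Zic1, which are transcription factor genes of the basal forebrain and septum and were picked out after their values were seen, moved with Lhx8, with repeat 1 above repeat 2 in 6 of 6 groups by 1.89, 2.08 and 1.71. Of the cholinergic genes, Chat, Slc18a3 and Slc5a7 were below the array median in all 24 arrays, and Ngfr was tested and was 2.97 ± 0.27 higher in MGE cultures (WT at 0 h, limma adjusted p = 1.1e-06). Sums over some lists of markers of other cell types also differed by repeat in 6 of 6 MGE groups. In such sums the brightest genes weigh most. By mean log2 level, the astrocyte order was the other way in MGE WT cultures at 6 h (9.36 in repeat 1 and 9.24 in repeat 2). The 7 vascular genes summed to 1400 to 1822 in repeat 1 and 3177 to 3923 in repeat 2, 8 progenitor genes to 15802 to 18413 in repeat 1 and 19893 to 22837 in repeat 2, and 7 astrocyte genes to 7128 to 9607 in repeat 1 and 10118 to 12563 in repeat 2. The 8 microglial genes were higher in repeat 1, at 2275 to 3791, with 1183 to 1815 in repeat 2. Their part in the Lhx8 values was not tested.

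**Figure D3:**
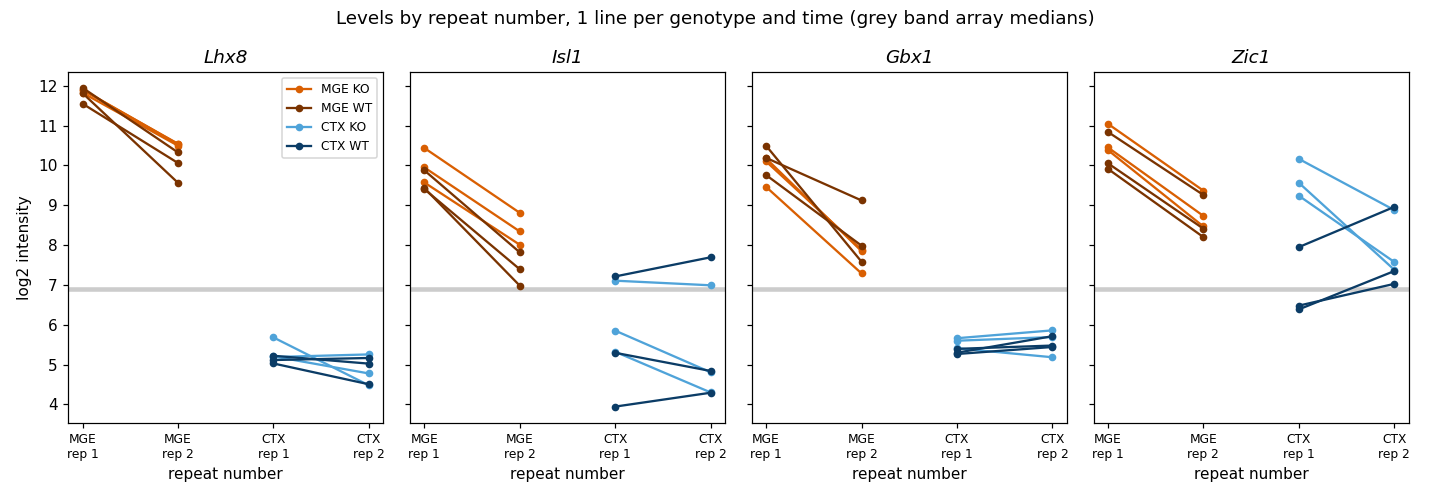
Log2 intensity of Lhx8, Isl1, Gbx1 and Zic1 in repeats 1 and 2, with 1 line for each genotype and time; the grey band is the range of array medians. In MGE cultures repeat 1 lies above repeat 2 on the 6 lines of each gene, by 1.57 on average for Lhx8.

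After 1 h of KCl, Dlx2 and Dlx5 were the genes with the largest increases, and both are described below by array. In single cultures, 0 of 9 genes passed the test at 1 h in each of the 4 cultures (limma), where 0.444% of all genes were called in MGE KO, 0.574% in MGE WT, 1.1% in CTX KO and 0.864% in CTX WT. At an unadjusted p under 0.05 the counts were 1, 2, 0 and 1 of 9 in that order of cultures. Among the 12378 tested genes they were 404, 661, 700 and 657.

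Dlx2 at 0, 1 and 6 h had 11.23, 12.26 and 11.93 in repeat 1 and 11.92, 12.64 and 12.15 in repeat 2 of MGE KO cultures, and 11.38, 11.53 and 11.87 in repeat 1 and 9.25, 12.12 and 11.49 in repeat 2 of MGE WT cultures. It had 10.20, 11.22 and 10.78 in repeat 1 and 10.29, 11.27 and 10.71 in repeat 2 of CTX KO cultures, and 10.19, 11.40 and 10.81 in repeat 1 and 9.75, 10.73 and 10.67 in repeat 2 of CTX WT cultures. In 4 of 4 cultures the arrays at 1 h lay above those at 0 h with no overlap, and likewise at 6 h, which 2.2% of all tested genes did at 1 h and 7.72% at 6 h. The log2 differences at 1 h were 0.88 in MGE KO, 1.51 in MGE WT, 1.00 in CTX KO and 1.09 in CTX WT cultures, each with an SE of 0.48. The MGE WT value turned on the 0 h arrays, and was 0.44 without the second (adjusted p = 1) and 2.58 without the first (adjusted p = 0.00097).

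Dlx5 at 0, 1 and 6 h had 10.54, 11.34 and 11.28 in repeat 1 and 10.77, 11.56 and 11.33 in repeat 2 of MGE KO cultures, and 10.52, 10.85 and 10.87 in repeat 1 and 9.19, 11.24 and 10.73 in repeat 2 of MGE WT cultures. In CTX KO cultures it had 8.45, 8.96 and 9.18 in repeat 1 and 8.88, 9.38 and 8.73 in repeat 2, and in CTX WT cultures 8.60, 9.31 and 9.37 in repeat 1 and 8.37, 8.96 and 8.39 in repeat 2. The arrays at 1 h lay above those at 0 h in 4 of 4 cultures, and those at 6 h in 2 of 4. The log2 differences at 1 h were 0.79 in MGE KO, 1.19 in MGE WT, 0.50 in CTX KO and 0.65 in CTX WT cultures, each with an SE of 0.37. The MGE WT value was 0.53 without the second 0 h array (adjusted p = 1) and 1.86 without the first (adjusted p = 0.00486).

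Since the single cultures had 2 arrays a group, the response was also averaged over the 4 cultures, a comparison added after the single-culture values were seen. At 1 h, 2 of 9 genes passed, both higher, where 4.77% of all genes were called and 2.33% were higher. Dlx2 rose by 1.12 ± 0.24 (2.18-fold, limma adjusted p = 0.0103) and Dlx5 by 0.78 ± 0.18 (1.72-fold, adjusted p = 0.0201). Over 24 fits that each left out 1 array, Dlx2 rose by 0.86 to 1.39 with limma adjusted p up to 0.0364, whereas Dlx5 missed the threshold in 7 of 24 such fits (adjusted p from 0.0556 to 0.063). The other 7 genes changed by -0.07 to 0.10 (limma adjusted p from 0.789 to 0.997).

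**Figure D4:**
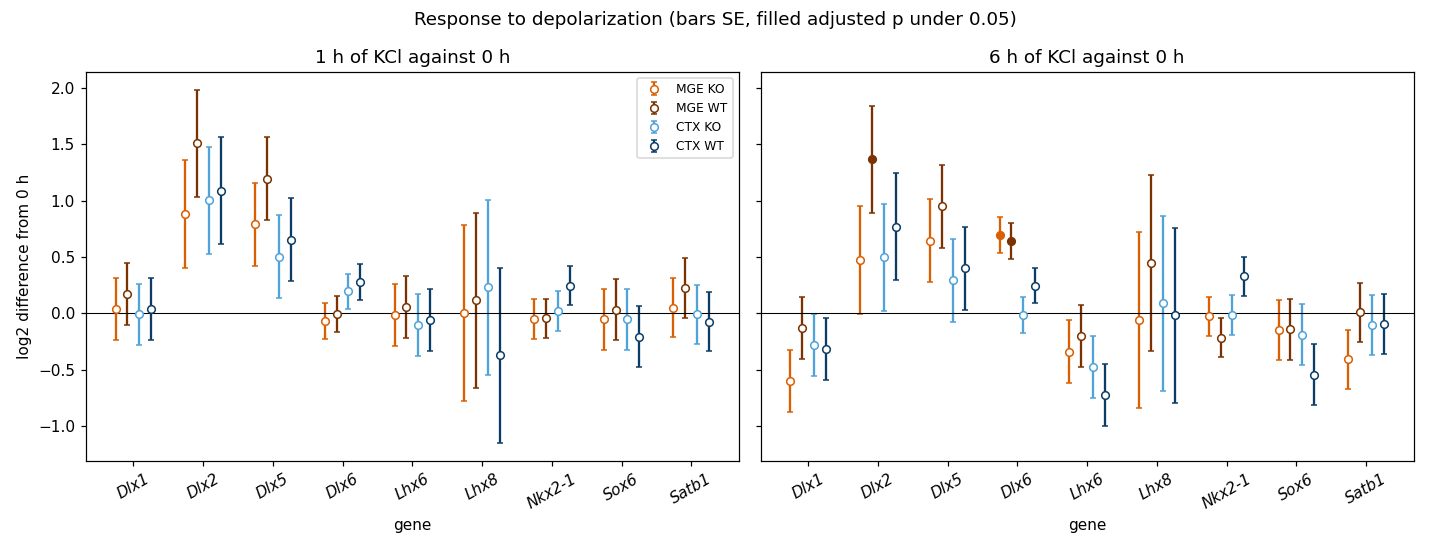
Log2 difference from 0 h after 1 h and 6 h of KCl in MGE KO, MGE WT, CTX KO and CTX WT cultures; bars are standard errors and filled symbols passed an adjusted p of 0.05. Dlx2 and Dlx5 lie above 0 in all 4 cultures at both times, and Dlx6 in MGE cultures at 6 h.

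After 6 h of KCl, Dlx6 rose in MGE cultures, and Lhx6 had its lowest group means in every culture. Dlx6 had 8.85 and 8.62 at 6 h, against 8.06 and 8.02 at 0 h, in MGE KO cultures, and 8.73 and 8.71 at 6 h, against 8.13 and 8.03 at 0 h, in MGE WT cultures. The arrays did not overlap, and Dlx6 rose by 0.69 ± 0.16 in MGE KO (1.62-fold, limma adjusted p = 0.00747) and by 0.64 ± 0.16 in MGE WT cultures (1.56-fold, adjusted p = 0.00962). At 1 h it had 7.99 and 7.96 in MGE KO and 8.18 and 7.97 in MGE WT cultures, near its 0 h level. In CTX cultures, where Dlx6 was below the array median, the differences at 6 h were -0.01 ± 0.16 in KO and 0.25 ± 0.16 in WT.

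In MGE KO cultures Dlx6 was the 1 gene called at 6 h, where 17.1% of all genes were called and 4.84% were higher. In MGE WT cultures 2 genes were called, Dlx6 and Dlx2, both higher, against backgrounds of 25.3% called and 9.53% higher. The MGE KO call was lost without the first 6 h array (0.58, adjusted p = 0.0925), and the MGE WT call of Dlx6 without the first 6 h array (0.64, adjusted p = 0.0698). The Dlx2 difference of 1.37 ± 0.48 (limma adjusted p = 0.0486) rested on 1 array at 0 h, and it was 0.30 with an adjusted p of 0.654 without it, while Dlx6 was then 0.59 with an adjusted p of 0.0717. In CTX cultures 0 of 9 genes passed by limma, where 36.2% of all genes were called in KO and 35.2% in WT. Without adjustment (p under 0.05) the counts were 0 and 1 in KO and WT, beside 5423 and 5357 of 12378 tested genes.

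Averaged over the 4 cultures at 6 h, 3 genes were higher and 1 lower, where 53.6% of all genes were called, 18.5% higher and 35.1% lower. Dlx2 was higher by 0.78 ± 0.24 (limma adjusted p = 0.0124), Dlx5 by 0.57 ± 0.18 (adjusted p = 0.0163) and Dlx6 by 0.39 ± 0.08 (adjusted p = 0.000691). Lhx6 fell by 0.43 ± 0.14 on the log2 scale (1.35-fold lower, adjusted p = 0.0151), and its arrays at 6 h lay below those at 0 h in 4 of 4 cultures, as did those of 17.8% of all tested genes. Lhx6 had 12.72 and 12.70 at 6 h in MGE KO cultures and 12.74 and 12.74 in MGE WT cultures, and 9.02 and 9.58 in CTX KO and 9.42 and 8.67 in CTX WT cultures. The second Lhx6 probe set differed by about the same amount, -0.43 ± 0.18, and did not pass in a fit over all probe sets (limma adjusted p = 0.0801).

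Dlx1 had a lower mean at 6 h in all 4 cultures, by -0.60 ± 0.27 in MGE KO, -0.13 ± 0.27 in MGE WT, -0.28 ± 0.27 in CTX KO and -0.32 ± 0.27 in CTX WT, and the average of -0.33 ± 0.14 missed the threshold (limma adjusted p = 0.0539). This average passed in a fit that added a block for repeat number (limma adjusted p = 0.0164). Sox6 averaged -0.26 ± 0.14 (adjusted p = 0.127), Satb1 -0.15 ± 0.13 (adjusted p = 0.363), Lhx8 0.12 ± 0.39 (adjusted p = 0.83) and Nkx2-1 0.02 ± 0.09 (adjusted p = 0.885). The Satb1 value depended on the probe set, since the second one, also above the median in all arrays, averaged -0.73 ± 0.13 (limma adjusted p = 0.00024). The third, above the median in all arrays too, averaged -0.26 ± 0.15 (adjusted p = 0.205), and the next dimmer one averaged 0.16 ± 0.09 (adjusted p = 0.197), with 0.51 ± 0.18 in CTX KO and 0.52 ± 0.18 in CTX WT cultures (adjusted p = 0.0524 and 0.0493).

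Low values of 3 genes came together in 1 CTX array. The second repeat of CTX WT cultures at 6 h had the lowest Dlx1 (8.49), Lhx6 (8.67) and Sox6 (8.12) of all arrays, against 8.86, 9.42 and 9.25 in the first repeat. In the same array 7 vascular genes summed to 6648, against 976 in the first repeat. In the other CTX groups these sums also differed by repeat, at 2772 to 5542 in repeat 2 and 782 to 988 in repeat 1. The second CTX WT array at 6 h also had Slc32a1 at 9.15 and Gad2 at 10.42, against 10.16 and 11.64 in the first repeat. Its 7 astrocyte genes summed to 8652, against 6354. Without that array Lhx6 averaged -0.34 at 6 h with an adjusted p of 0.0392. Without the first repeat instead, Sox6 in CTX WT cultures at 6 h was -1.11 and was called (adjusted p = 0.00139), as was its average of -0.40 (adjusted p = 0.00252). The part of culture composition was not tested.

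Calls among related genes at 6 h stand beside 17.1% of all genes called in MGE KO, 25.3% in MGE WT, 36.2% in CTX KO and 35.2% in CTX WT cultures. Of 9 MGE specification and partner genes, 0 were called in MGE KO, MGE WT and CTX KO cultures by limma, and 1, Isl1, was higher in CTX WT cultures (adjusted p = 0.0116), at 7.21 and 7.70 at 6 h, against 3.95 and 4.30 at 0 h. Of 19 interneuron genes, 0 were called in MGE KO cultures and 2 were higher in MGE WT cultures. In CTX cultures 4 were higher and 1 lower in KO, and 3 were higher and 1 lower in WT. Sst rose there by 1.04 ± 0.29 in KO and 1.34 ± 0.29 in WT (limma adjusted p = 0.0114 and 0.00242), and Prox1, a factor of caudal eminence interneurons, at least 9.93-fold in KO and 13.9-fold in WT over the array median, below which it lay at 0 h (adjusted p = 7.27e-05 and 3.51e-05).

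The noncoding neighbours of the Dlx genes, picked out after their values were seen, had their own courses. Dlx1as, an antisense RNA gene listed between Dlx1 and Dlx2 by start position, rose at 6 h in all 4 cultures. It rose by 1.07 ± 0.24 in MGE KO and 1.00 ± 0.24 in MGE WT cultures. In CTX KO and CTX WT cultures it rose by 0.83 ± 0.24 and 0.81 ± 0.24 (limma adjusted p from 0.00596 to 0.0162 over the 4 cultures). Its levels at 6 h were 13.27 and 13.24 in MGE KO and 13.15 and 13.06 in MGE WT cultures, against 12.08 and 12.28 in MGE KO and 12.13 and 12.08 in MGE WT cultures at 0 h. Dlx1, the neighbour on one side, was not higher in any of these cultures at 6 h, and Dlx2, on the other side, was already higher at 1 h, when Dlx1as averaged 0.35 ± 0.12 (limma adjusted p = 0.152). Dlx6os1, a long noncoding RNA also known as Evf2, averaged 0.03 ± 0.31 at 1 h (adjusted p = 0.992) and 1.03 ± 0.31 at 6 h (adjusted p = 0.0104). It had 11.47 and 11.56 in MGE KO and 11.12 and 11.12 in MGE WT cultures at 6 h, against 9.84 and 10.06 in MGE KO and 9.93 and 8.84 in MGE WT cultures at 0 h. The single-culture differences of Dlx6os1 at 6 h were 1.56 in MGE KO, 1.74 in MGE WT, 0.65 in CTX KO and 0.19 in CTX WT, each with an SE of 0.61 and none past the test. In CTX WT cultures it had 8.06 and 5.67 at 6 h, against 7.19 and 6.17 at 0 h. The strand read by each probe set was not checked, so signal of overlapping transcripts cannot be told apart.

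**Figure D5:**
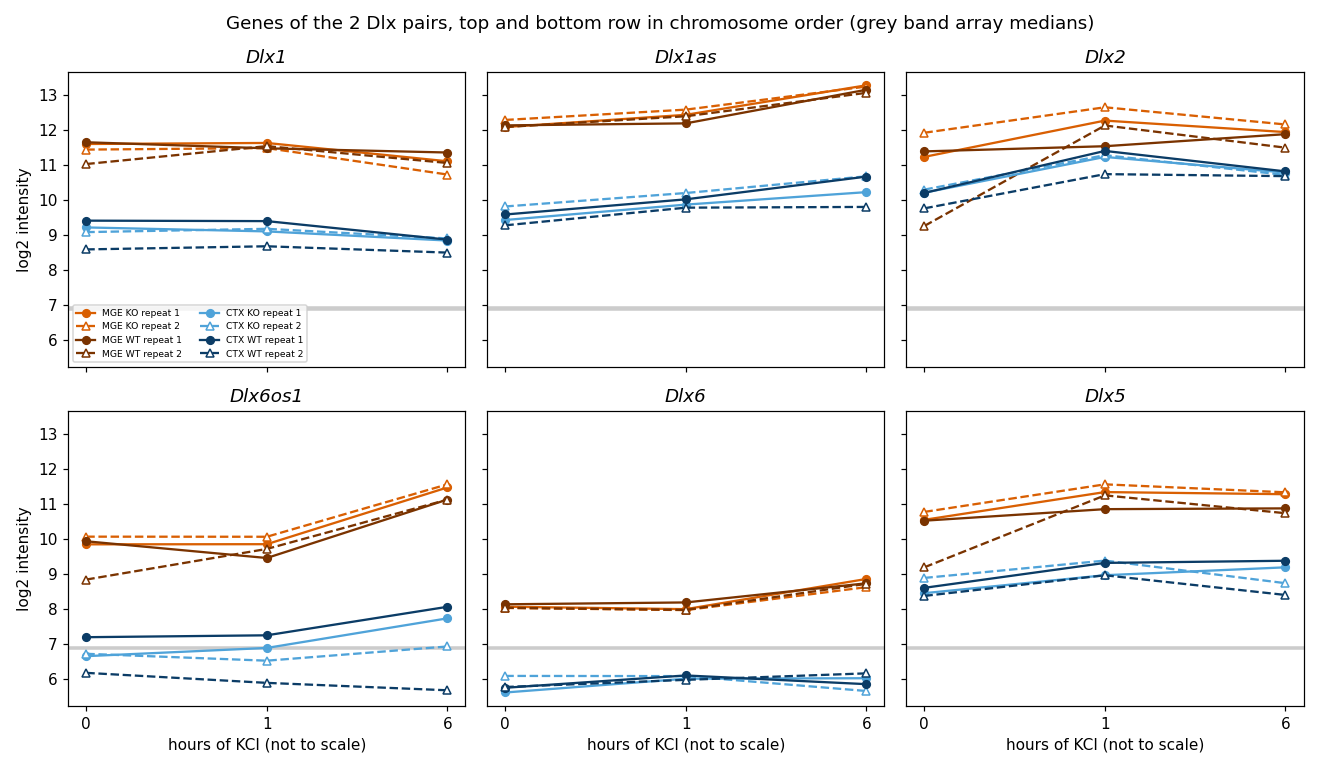
Log2 intensity at 0, 1 and 6 h of KCl for the genes of the Dlx1 and Dlx2 pair (top) and the Dlx6 and Dlx5 pair (bottom), with 1 line for each repeat of each culture; the grey band is the range of array medians. Dlx2 and Dlx5 are higher at 1 h than at 0 h, and Dlx1as, Dlx6os1 and Dlx6 are higher at 6 h in MGE cultures.

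Responses were compared between cell types and genotypes directly. At 6 h, 0 of 9 genes differed in response between MGE and CTX cultures by limma, in WT, where 10.9% of all genes did, and in KO, where 7.34% did, and 1 of 9 had an unadjusted p under 0.05 in each. That unadjusted threshold was met by 3600 of 12378 tested genes in WT and 2614 in KO. Dlx6 came nearest in KO, with a response larger by 0.71 ± 0.23 in MGE cultures, and did not pass. This value is a description, since Dlx6 was below the array median in all CTX arrays, which limits what a response there can show. The counts of 9 also include Lhx8 and Nkx2-1, which were below the array median in all CTX arrays too. All of these genes passed the filter on low values through MGE arrays alone. Between KO and WT, 0 of 9 genes differed in their 6 h response in either cell type, with backgrounds of 0% in MGE and 0.00808% in CTX. Nor did any at an unadjusted p under 0.05, where 190 of 12378 tested genes did in MGE and 120 in CTX.

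None of the 9 genes was called between the Npas4 genotypes. In KO against WT, 0 of 9 genes passed by limma at each time in each cell type, with backgrounds of 0%, 0.0242% and 0.0323% of all genes in MGE cultures at 0, 1 and 6 h and of 0%, 0.00808% and 0.0485% in CTX cultures. At an unadjusted p under 0.05, 3 genes differed in MGE cultures at 0 h and 0 in the other 5 comparisons. Of 12378 tested genes, 2598 did so in MGE cultures at 0 h and 49 to 429 in the other 5 comparisons. Averaged over the 3 times, 0 of 9 genes passed in MGE cultures (background 0.0162%) or in CTX cultures (background 0.00808%). Without adjustment (p under 0.05), 3 of 9 genes differed in the MGE average, beside 3942 of 12378 tested genes. In MGE cultures the averaged KO minus WT difference was 0.75 for Dlx2 (95% interval 0.16 to 1.34, limma adjusted p = 0.101), 0.57 for Dlx5 (0.11 to 1.02, adjusted p = 0.103) and 0.50 for Satb1 (0.17 to 0.82, adjusted p = 0.0923). For Lhx6 it was 0.04 (-0.30 to 0.38), for Sox6 0.01 (-0.32 to 0.35), for Dlx1 -0.02 (-0.36 to 0.32) and for Dlx6 -0.04 (-0.24 to 0.16). In CTX cultures the 9 averaged differences lay between -0.12 and 0.23.

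The sizes of the 3 larger MGE differences moved with the MGE WT arrays at 0 h. Without the second array there, the averages over the 3 times were 0.39 for Dlx2, 0.35 for Dlx5 and 0.37 for Satb1 (limma adjusted p = 0.289, 0.333 and 0.27). KO arrays lay above WT arrays in MGE cultures for Dlx2 and Dlx5 at 1 and 6 h and for Satb1 at 1 h, in groups without that array. Lhx6 at 6 h and Nkx2-1 at 1 h went the other way, with KO arrays below WT arrays. The share of all tested genes in such an order was not counted, so these orders are only a description. Without the second array of that group, KO minus WT at 0 h was 0.19 for Dlx2, 0.14 for Dlx5 and 0.31 for Satb1, each with an adjusted p of 1. Without the first array, with the second alone standing for the group, the differences were 2.32 for Dlx2, 1.47 for Dlx5 and 1.08 for Satb1, and all 3 were called (limma adjusted p = 0.000474, 0.00702 and 0.0117). In the second array the 19 interneuron genes summed to 67973, against 78772 in the first, and 7 astrocyte genes to 10190, against 7128. The astrocyte sum was not particular to that array. It ran from 10118 to 12563 over the repeat 2 arrays of the MGE groups, with 12513 in MGE KO cultures at 0 h. The part of culture composition was not tested.

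The genes whose group means ran most alike were sought among the tested genes outside the 9, as a description over 12 group means that share their libraries. Within the 9 genes, Lhx6 had an r of 0.9975 with Sox6 and of 0.9956 with Dlx1. Both values lay above that of the second outside gene named for Sox6 and for Dlx1. For Lhx6 and Dlx1 the closest was Pbx3 (Pearson r of 0.9985 and 0.998), followed by Gabrg3 (0.9976) for Lhx6 and Rtl8c (0.9948) for Dlx1. Sox6 was closest to Tox2 (0.9976) and Hc (0.9965), Lhx8 to Hapln1 (0.999) and Slco1a4 (0.9986), Dlx6 to Stx11 (0.9952) and Pafah1b3 (0.9933), and Satb1 to Slf1 (0.9982) and Papss1 (0.9975). Dlx5 was closest to Sntb1 (0.9768) and Cstb (0.9761), Dlx2 to Atp11b (0.9191) and Gabpb2 (0.9176), and Nkx2-1 to Eln (0.9568) and Sh3bp1 (0.9474). With the mean of each cell type removed, Dlx2 and Dlx5 were close to each other (0.9753) and both to Eif1a (0.9705 and 0.987), and Dlx6 was closest to Gpr151 (0.9518) and Svil (0.9479), with 0.2942 to Dlx5, its nearest among the 9 genes. Lhx6 was then closest to Lactb (0.9843) and Cxxc4 (0.9838), and to Sox6 (0.8442) among the 9 genes.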

How the data were processed

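The authors deposited 1 linear intensity per probe set and array for 45101 probe sets, made with RMA per the submitters' processing notes, with no version and no statement of whether all arrays were normalized together. Intensities were converted to log2. Probe sets were named from the platform annotation, of which 34958 named 1 gene, 932 several and 9211 none; 34754 matched RefSeq and 0 were renamed. Each gene used its probe set with the highest mean, and genes were tested if 2 or more arrays put them over that array's median. limma 3.58.1 in R 4.3.3 fitted 12 group means to 24 arrays (12 residual and 2.41 prior degrees of freedom) for 30 comparisons, two-sided, with Benjamini-Hochberg adjustment over 12378 genes and a threshold of 0.05. Errors are standard errors, and the number of arrays limits precision. In a test on simulated data for CTX WT at 6 h against 0 h, with 12378 genes, 7 of 50 genes shifted by 0.5, 29 of 50 by 1 and 46 of 50 by 2 on the log2 scale were called. There 12178 genes had no shift, whereas 35.2% of genes were called in the measured comparison. The adjustment depends on that share, so these rates do not give the power of the measured comparison.

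All 9 genes were eligible to be named in every comparison, as were Npas4, Fos and Arc and up to 4 called genes of each list. So were the 2 genes outside the 9 most alike each member, with Gm and Rik names skipped. Members and lists were chosen with earlier results of these data known. Alternatives were the block for repeat number, filters, quantile and cyclic loess normalization, an offset of 16, the second probe set, a trended robust fit, array weights, each cell type alone, and arrays left out.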

Additional observations from a re-analysis of the deposited data

How the results depend on the processing

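Over the member comparisons, 2800 values under another setting kept their side of the threshold, 11 lost it, 21 gained it and 0 reversed; with 1 array left out at a time the counts were 6397, 43, 40 and 0. The calls between MGE and CTX kept to 7 or 8 of 9 genes in WT at 0 h and 44 to 48 of 54 in all when arrays were left out. The 2 calls in MGE WT at 6 h became 1 with the replicate block, with no filter on low values and with MGE arrays alone, and 0 with array weights and without both doubted arrays (left-out range 0 to 3). The 0 calls in CTX WT at 6 h became 1 with the second probe set (Satb1), the trended robust fit (Lhx6), both doubted arrays left out (Dlx5) and CTX arrays alone (Dlx2), with a left-out range of 0 to 2. The 1 call in MGE KO at 6 h became 2 with the second probe set and without both doubted arrays, and ranged from 0 to 1 with arrays left out. The 0 calls at 1 h in single cultures became 2 with array weights, both Dlx2 in CTX cultures, and ranged from 0 to 2; the 2 averaged calls at 1 h ranged from 1 to 2. With arrays left out, calls for KO against WT ranged from 0 to 3 in single groups and from 0 to 3 in averages, for the cell type difference in WT response at 6 h from 0 to 2 and for the genotype difference from 0 to 1. The cause of each was not tested.

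Repeat numbers were not treated as paired, since the labels do not say what they mark and there are 2. Deviations of same-numbered arrays correlated between -0.23 and 0.86 over the 15 pairs of MGE groups and between 0.11 and 0.71 over the 15 pairs of CTX groups. The median was 0.61 in MGE and 0.37 in CTX, and 13 of 15 MGE pairs and 15 of 15 CTX pairs lay above 0.1. A shift shared by same-numbered arrays thus stays in the standard errors of the main fit. With the replicate block, Dlx2 in MGE WT at 6 h had an adjusted p of 0.0523, and the averaged Dlx1 difference at 6 h passed (-0.33, limma adjusted p = 0.0164). Signals at or under the array median, as for Nkx2-1 in all cultures and Dlx6 and Lhx8 in CTX cultures, limit what the arrays can show, and folds against them are lower bounds.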
